A study of Mus musculus with 24 samples.

Results

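The genes described here are 4 adult globin genes and 1 enzyme gene of red cell precursors, 5 of the 54232 genes in the count table: Hba-a1 and Hba-a2 (alpha globin), Hbb-bs and Hbb-bt (beta globin) and Alas2. They were chosen by name after their summed level had been seen to peak in 1 library, PNx replicate 6, so their height in that library is how they were found and is given as a description. All 5 had more than 10 counts over the 24 libraries and entered every fit. RNA from adipose tissue of C57BL6 mice, aged 10 weeks by the series description, was sequenced in 4 groups of 6. Control mice had a sham operation and a lentivirus carrying GFP (green fluorescent protein). NaKtide mice had the sham operation and a lentivirus carrying the NaKtide peptide, which was designed to block Src signalling by the Na,K-ATPase. PNx mice had most of their kidney mass removed (partial nephrectomy, a model of renal failure) and received the GFP virus, and PNx+NaKtide mice had the same surgery and the NaKtide virus. Every animal thus carried a lentivirus, and in all of them an adiponectin promoter, active in adipocytes, drove the insert.

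Haemoglobin is a tetramer of 2 alpha and 2 beta chains, each holding a haem group, and its mRNAs are the main transcripts of red cell precursors and reticulocytes. Alas2 encodes the erythroid form of 5-aminolevulinate synthase, the enzyme of the first step of haem synthesis, while its relative Alas1 serves other tissues. Adipose tissue makes no red cells, and globin mRNA in a tissue sample usually comes from the blood in its vessels. In bulk tissue, fewer cells of a type and less RNA per cell cannot be told apart.

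In GRCm38 (GENCODE M21) the alpha genes lie on the plus strand of chromosome 11, Hba-a1 (ENSMUSG00000069919) at 32283511 to 32284465 and Hba-a2 (ENSMUSG00000069917) at 32296489 to 32297298. The beta genes lie on the minus strand of chromosome 7, Hbb-bs (ENSMUSG00000052305) at 103826534 to 103828096 and Hbb-bt (ENSMUSG00000073940) at 103812524 to 103813996. Alas2 (ENSMUSG00000025270) lies on the plus strand of the X chromosome at 150547375 to 150570638. Of the 5 genes, Alas2 alone shares exon bases with genes on the opposite strand, 372 bases with Apex2 and Mir3620. Paralogs share much sequence: 67.5% of the 50-base stretches of the main Hba-a1 transcript also occur in Hba-a2, and 65.8% of those of Hbb-bs occur in Hbb-bt. The split of reads within each pair is therefore uncertain, and the pairs are best read together.

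The 150 bases before the RefSeq start (GRCm38.p6) are shown for 4 of the genes because the globin genes varied together and Alas2 correlated less with them. Capitals mark the motifs searched. The motif of GATA factors, which include the erythroid regulator Gata1, was spelled AGATAA, and a first letter of T in its place was also accepted. The Klf motif, which Klf1 is known to bind, was spelled CCACCC, and the longer CCACACCC was also accepted. The CCAAT box was searched, like both of these, on either strand. The TATA box was searched as ATATAA on the strand shown.
Hba-a1, chr11:32283522-32283671, plus strand: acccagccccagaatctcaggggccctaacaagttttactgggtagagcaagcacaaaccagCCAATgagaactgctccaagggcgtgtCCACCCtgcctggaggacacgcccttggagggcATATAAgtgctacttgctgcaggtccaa
Hbb-bs, chr7:103827929-103828078, minus strand: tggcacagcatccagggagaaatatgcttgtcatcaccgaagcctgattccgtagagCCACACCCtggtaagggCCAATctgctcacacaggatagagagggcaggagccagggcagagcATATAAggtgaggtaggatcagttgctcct
Hbb-bt, chr7:103813924-103814073, minus strand: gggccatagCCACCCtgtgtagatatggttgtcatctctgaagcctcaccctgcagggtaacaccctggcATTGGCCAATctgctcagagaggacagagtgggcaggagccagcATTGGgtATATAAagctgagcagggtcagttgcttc
Alas2, chrX:150547267-150547416, plus strand: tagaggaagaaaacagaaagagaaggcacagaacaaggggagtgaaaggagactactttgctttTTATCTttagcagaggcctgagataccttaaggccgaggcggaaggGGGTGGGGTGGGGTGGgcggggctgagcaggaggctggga
The Hba-a2 sequence was identical to that of Hba-a1 over 297 bases around the start, and Hbb-bs and Hbb-bt matched at 56.2% of 299 bases. All 4 globin promoters held the Klf motif, the CCAAT box and the TATA box, while the promoter of Alas2 held the Klf motif, in 3 matches that overlap by 1 base each, and neither box in its 250 bases. The GATA-factor motif was found in the promoter of Alas2 and, upstream of the bases shown, in those of Hba-a1, Hba-a2 and Hbb-bs, but not in that of Hbb-bt. Among 32851 RefSeq promoters, 16.6% held the GATA-factor motif within 250 bases, 30.1% the Klf motif, 33.8% the CCAAT box and 5.57% the TATA box. These matches are letters only and do not show binding.

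The libraries were shallow, with totals from 679250 to 2979505 counts. Genes with opposite-strand exon overlap held 79.7% of all counts, and the minus-strand mitochondrial mRNA mt-Nd6 had 67.6 times the counts per kb of the 12 plus-strand mRNAs, although the kit was stranded. Whether the counting assigned reads to the opposite strand is not given in the sources used here, so a count of these 5 genes may not measure their sense RNA, and their levels are those of the count table.

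Globin counts were concentrated in 1 library. The 4 globin genes had 5556 counts in all, of which 4270 (76.9%) were in PNx replicate 6. NaKtide replicate 6 held 366 and Control replicate 1 held 233, and these 3 libraries together held 87.6%. Summed globin level in CPM (counts scaled to the same library total) was 2238 in PNx replicate 6, 229.5 in NaKtide replicate 6 and 127 in Control replicate 1, against a median of 19.1 over 24 libraries and a lowest value of 1.73.

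Hba-a1 ranged from 3.14 to 38.7 CPM in Control (median 9.03), from 2.94 to 74.6 in NaKtide (median 6.66), from 0.433 to 656 in PNx (median 3.90) and from 0 to 17.3 in PNx+NaKtide (median 1.19). Hba-a2 followed it closely, with medians of 7.23, 5.86, 3.86 and 1.19 CPM in the same order and a highest value of 622 CPM in PNx replicate 6. In every group 1 library stood well above the other 5, namely Control replicate 1, NaKtide replicate 6, PNx replicate 6 and PNx+NaKtide replicate 1, and the ranges of the 4 groups overlapped. Where Hba-a1 was at 0 counts, in PNx+NaKtide replicate 4, a count of 0 allows up to 3 counts.

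Hbb-bs ranged from 2.78 to 26.2 CPM in Control (median 5.42), from 2.94 to 45.2 in NaKtide (median 4.75), from 0.433 to 529 in PNx (median 4.76) and from 0.708 to 8.33 in PNx+NaKtide (median 2.48). Hbb-bt had medians of 5.15, 3.61, 2.29 and 2.09 CPM in that order, and its highest value was 431 CPM in PNx replicate 6. The beta genes were high in the same 3 libraries as the alpha genes, and the ranges of the groups overlapped here too.

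Alas2 behaved differently. It ranged from 6.50 to 15.6 CPM in Control (median 13.9), from 1.77 to 10.4 in NaKtide (median 6.71), from 1.01 to 22.0 in PNx (median 6.82) and from 3.54 to 8.91 in PNx+NaKtide (median 5.87). PNx replicate 6 was again highest, at 22.0 CPM, but exceeded the next library, Control replicate 4, by 1.41-fold. For the globin genes the excess over the next library, NaKtide replicate 6, was 8.79-fold (Hba-a1), 8.54-fold (Hba-a2), 11.7-fold (Hbb-bs) and 11.7-fold (Hbb-bt). In NaKtide replicate 6, second for every globin gene, Alas2 was at 7.53 CPM, below its median of 7.71 over 24 libraries.

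**Figure D1:**
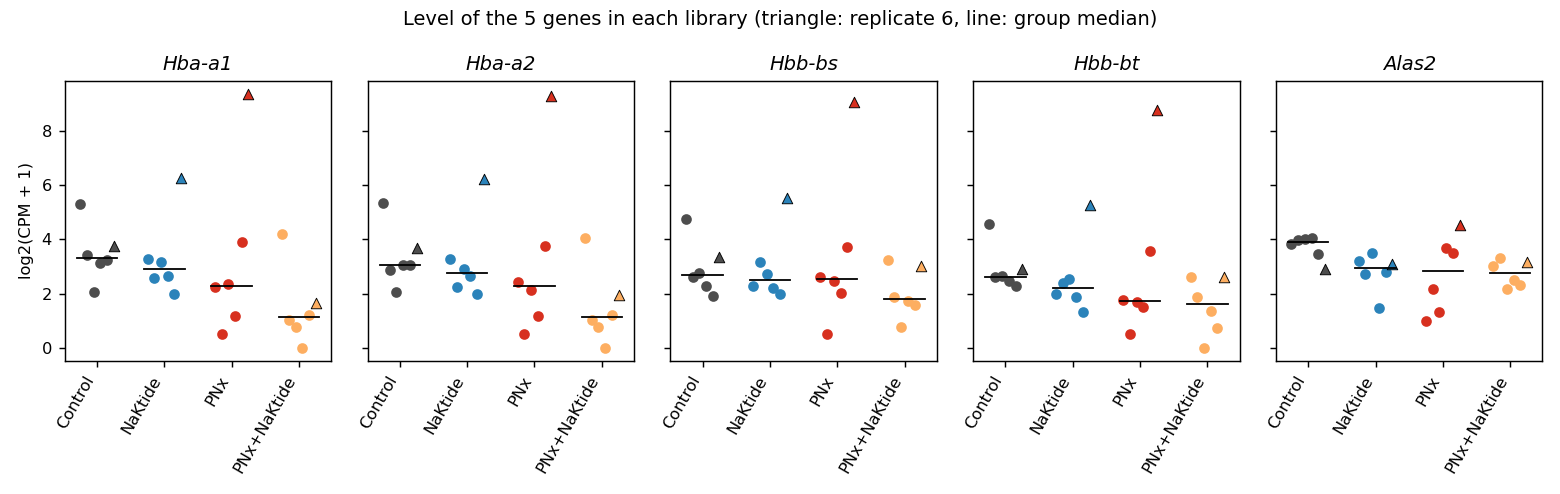
Level of each of the 5 genes, as log2(CPM + 1) on the vertical axis, in the 6 libraries of each group. Triangles mark replicate 6, circles the other replicates and lines the group medians. PNx replicate 6 stood far above every other library for the 4 globin genes and only slightly above for Alas2.

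Per length, as the authors' FPKM (fragments scaled by gene length and library depth), the median levels over 24 libraries were 7.36 for Hba-a2, 6.44 for Hba-a1, 5.91 for Hbb-bs, 5.08 for Hbb-bt and 3.03 for Alas2. The order of these medians is small beside the spread between libraries, since each globin gene ranged from under 1 FPKM to over 395 FPKM. In PNx replicate 6 the FPKM of the globin genes was 75.1 to 81.6 times the median over 24 libraries, and that of Alas2 was 1.95 times.

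The make-up of the globin counts was compared next. Among libraries with at least 20 counts in the denominator, Hba-a1 made up 52.1% ± 3.51 (SD, n = 12) of alpha globin counts, Hbb-bs 57.2% ± 6.01 (SD, n = 10) of beta globin counts, and alpha 56.6% ± 12.2 (SD, n = 16) of all globin counts. PNx replicate 6 had 51.4% (95% Wilson interval 49.4 to 53.3), 55.1% (52.8 to 57.3) and 57.1% (55.6 to 58.6), each within 1 SD of those means. Of 20 planned group comparisons 14 had at least 2 libraries per group, and none passed an exact two-sided permutation test (lowest p = 0.173, Benjamini-Hochberg adjusted p = 0.753). The smallest p these designs allow ranged from 0.00216 to 0.0667, and with so few libraries the lack of a pass does not show that proportions were equal. These intervals cover counting error only.

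Alas2 was 24.2% ± 17.6 (SD, n = 19) of the counts of all 5 genes, and 0.974% (95% Wilson interval 0.721 to 1.31) in PNx replicate 6. In PNx replicate 4 it was 61.3% (43.8 to 76.3), of 31 counts. The denominator is mostly globin, by which PNx replicate 6 was picked, so the low share there follows from the choice. In CPM the level of Alas2 itself was highest in that library. In FPKM it was 5.90 there, below its highest value of 6.78 in Control replicate 3.

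Over the 24 libraries, log2(CPM + 1) of Hba-a1 and Hba-a2 correlated with Pearson r of 0.997 and Spearman rho of 0.986, and Hbb-bs and Hbb-bt with r of 0.982 and rho of 0.924. The alpha and beta genes, which lie on different chromosomes, correlated with r of 0.927 to 0.942 and rho of 0.802 to 0.850. These values include the library by which the genes were chosen and are given without a p. Leaving out PNx replicate 6, r between alpha and beta genes was 0.862 to 0.888, and permutation p-values (100000 resamples) for r were 1e-05 in all 6 globin pairs, the smallest they can give, with an adjusted p of 1.67e-05 over the 10 pairs. Without PNx replicate 6 and NaKtide replicate 6, the 2 libraries farthest from the median, r between alpha and beta genes was still 0.805 to 0.839. The within-pair values are raised by the shared sequence, as far as reads were split between paralogs.

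Alas2 correlated less with the globin genes, with r of 0.462 (Hba-a2), 0.466 (Hbb-bs), 0.477 (Hba-a1) and 0.564 (Hbb-bt) over the 24 libraries. The rho values were 0.441, 0.428, 0.449 and 0.630. Without the same 2 libraries r was 0.345, 0.354, 0.368 and 0.544, so the relation of Alas2 to the first 3 rests partly on them. Leaving out PNx replicate 6 alone, r was 0.314, 0.314, 0.337 and 0.475, with adjusted permutation p of 0.144 for the first 3 and 0.0300 for Hbb-bt, and by rho the adjusted permutation p was 0.0981, 0.101, 0.0981 and 0.00566.

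Alas2 counts may hold reads of Apex2, an endonuclease gene of DNA repair, across the exon bases they share. The 372 overlapping bases are for Apex2 and Mir3620 together. Apex2 had 2741 counts against 350 for Alas2, and its level was highest in PNx replicate 6 (222 CPM) and NaKtide replicate 6 (116 CPM), against a median of 56.7 CPM. Alas2 and Apex2 correlated over 24 libraries with r of 0.468 and rho of 0.551, and r was 0.667 without PNx replicates 1 and 3. All of these values include PNx replicate 6, the library by which the genes were chosen, and are given without a p. The part of Apex2 in the Alas2 counts was not tested.

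**Figure D2:**
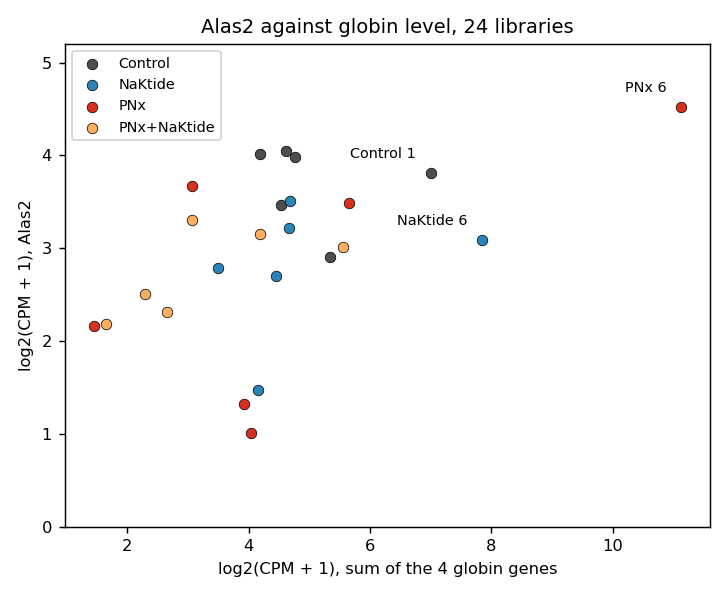
Alas2 on the vertical axis against the summed level of the 4 globin genes on the horizontal axis, both as log2(CPM + 1), with 1 point for each of the 24 libraries coloured by group. PNx replicate 6 (2238 CPM of globin, 22.0 CPM of Alas2) lies far to the right and only slightly above the Control libraries.

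The effect of renal failure was examined first, as PNx against Control, from edgeR's quasi-likelihood fit of all 26116 genes tested. Log2 fold changes were 2.65 ± 1.26 (SE) for Hba-a1, 2.68 ± 1.26 for Hba-a2, 2.96 ± 1.13 for Hbb-bs, 2.78 ± 1.16 for Hbb-bt and -0.84 ± 0.54 for Alas2. This contrast holds the library by which the genes were found, so no p is given. edgeR called 0 of the 5 members at an adjusted p under 0.1, where 0.0766% of all genes were called. At an unadjusted p under 0.05 it gave 4 members, all higher, beside 18.5% of all genes in that direction, a count that the choice of genes bears on and from which nothing is read.

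Without PNx replicate 6 the globin direction turned. That library was the highest of all for each of the 5 genes and was picked for its globin height. Leaving it out therefore lowers the PNx side by construction. The choice of genes bears on this fit too, and its p-values are given as a description. Log2 fold changes were -1.66 ± 0.92 (SE) for Hba-a1, -1.63 ± 0.92 for Hba-a2, -0.94 ± 0.72 for Hbb-bs and -1.31 ± 0.79 for Hbb-bt, and Alas2 stood at -1.24 ± 0.56. The edgeR adjusted p-values were 0.213, 0.220, 0.356, 0.243 and 0.136, so that 0 of 5 members were called where 14.8% of all genes were. At an unadjusted p under 0.05, Alas2 alone was counted, as lower, beside 9.03% of all genes. Its low values lay in PNx replicates 1, 2 and 3 (1.01, 3.46 and 1.49 CPM). PNx replicates 4 and 5 (11.7 and 10.2 CPM) lay within the Control range of 6.50 to 15.6 CPM, so this was not a shift of the whole group. DESeq2 returned no p for the 4 globin genes in the fit of all 24 libraries. In a fit of the same libraries, limma voom with sample weights called all 5 members lower in PNx, beside 30.9% of all genes. That fit holds PNx replicate 6, and nothing is read from its calls.

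The effect of NaKtide after nephrectomy, PNx+NaKtide against PNx, also turned on that library. Globin log2 fold changes were -4.51 (SE 1.40) for Hba-a1, -4.51 (SE 1.40) for Hba-a2, -4.14 (SE 1.21) for Hbb-bs and -4.44 (SE 1.29) for Hbb-bt, and Alas2 was at -0.29 (SE 0.56). edgeR called 0 of 5 members beside 0.0% of all genes, and 4 were lower at an unadjusted p under 0.05 beside 8.62%, from which again nothing is read. Without PNx replicate 6 the globin values lay between -0.35 and -0.19 and Alas2 was at 0.12, with edgeR adjusted p from 0.807 to 0.914, 0 members called beside 0.0% of genes and 0 members at an unadjusted p under 0.05, beside 17.1% of all genes. For Hba-a1 the 95% interval was then -2.07 to 1.67, so changes of several fold in either direction were not detectable. The library left out was picked for its globin height, so these p-values too are a description.

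**Figure D3:**
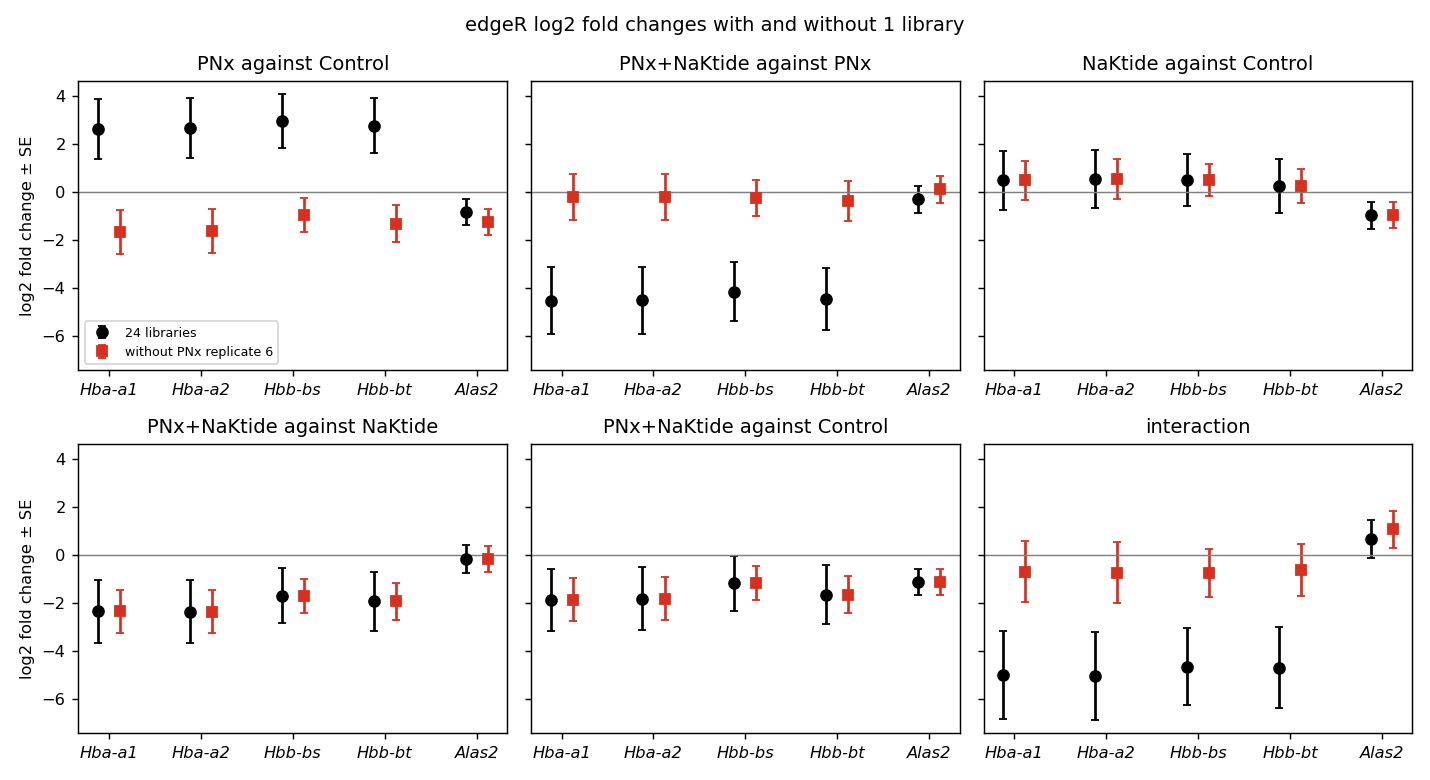
edgeR log2 fold changes (points, vertical axis) with SE bars for the 5 genes in 6 contrasts, from 24 libraries (black circles) and without PNx replicate 6 (red squares). In PNx against Control the globin values turned from 2.65 to 2.96 to -1.66 to -0.94, and the contrasts without PNx hardly moved.

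In the contrasts that do not use the PNx group edgeR called no member, and limma voom called Hba-a1 and Hba-a2 lower in PNx+NaKtide than in Control, beside 0.915% of all genes. In sham mice, NaKtide against Control, globin log2 fold changes were 0.27 to 0.54 and Alas2 was at -0.96 ± 0.56 (SE), with an edgeR adjusted p of 1 for all 5, 0 members at an unadjusted p under 0.05 (3.95% of all genes) and 0.0% of genes called. Without NaKtide replicate 6 the globin values were -1.16 to -0.71, so their sign rested on that library. In PNx+NaKtide against NaKtide they were -2.37 to -1.70, with Alas2 at -0.17 ± 0.57 (SE), edgeR adjusted p of 1, 0 members at an unadjusted p under 0.05 (4.08% of all genes) and 0.0% of genes called. Without NaKtide replicate 6 these globin values shrank to -0.85 to -0.47.

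In PNx+NaKtide against Control, globin log2 fold changes were -1.87 to -1.18 and that of Alas2 was -1.13 ± 0.56 (SE), with edgeR adjusted p of 1 for all 5 genes. edgeR gave 0 members at an unadjusted p under 0.05 (3.61% of all genes), where 0.0% of genes were called. PNx replicate 6 enters this contrast and the one against NaKtide only through the shared estimate of spread. Without it edgeR still called 0 members in either, but at an unadjusted p under 0.05 it gave 4 members lower against NaKtide, beside 3.49% of all genes, and 3 lower against Control, beside 2.38%. The globin log2 fold changes hardly moved (-2.37 to -1.70 and -1.86 to -1.18), so the counts changed with the estimate of spread. PNx replicate 6 was picked for its globin height, and nothing is read from these counts. The interaction of surgery and virus, the difference between the NaKtide effects in PNx and in sham mice, was -5.05 to -4.66 for the globin genes and 0.67 ± 0.79 (SE) for Alas2, described without a p. edgeR called 0 of 5 members beside 0.0% of all genes, and 4 were lower at an unadjusted p under 0.05 beside 5.78%, with nothing read from this count either. Without PNx replicate 6 the globin values were -0.76 to -0.62, with edgeR adjusted p from 0.671 to 0.841 over the 5 genes, 0 members called beside 0.0% of genes and 0 at an unadjusted p under 0.05 beside 8.52%. The choice of the library left out bears on these interaction values as well. The spread between libraries behind these errors was wide, with a biological coefficient of variation of 119% to 136% for the globin genes, 62.8% for Alas2 and 71.4% over all genes.

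Other genes of red cells varied in PNx replicate 6. Embryonic and minor globins (7 genes) had 9 counts in all, with Hba-x, Hbb-bh0, Hbb-bh1, Hbb-bh2 and Hbb-y at 0 in every library. Klf1, the transcription factor that activates beta globin, was at 1.57 CPM in PNx replicate 6 and 18.2 ± 5.16 CPM (SD, n = 6) in Control.

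Over whole lists, a gene was highest in PNx replicate 6 in 24.8% of all genes tested. The share was 4 of 12 haem synthesis genes, 4 of 16 red cell membrane and skeleton genes, 2 of 9 erythroid transcription factors and 7 of 13 genes of erythroid signalling and maturation. It was 6 of 7 red cell antioxidant enzymes, 8 of 12 genes of haemoglobin and haem clearance and 8 of 13 of the hypoxia and erythropoietin response. Several of these are active in many tissues: Sod1 (superoxide dismutase) had 195 CPM in PNx replicate 6 and a median of 64.7, and Fth1 (ferritin heavy chain) had 346 and 48.4. Hp, which encodes the haemoglobin-binding protein haptoglobin, had 742 CPM and a median of 22.1.

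In haem synthesis, the most abundant genes were Ppox, Abcb10 and Alas1, at 564, 48.8 and 44.0 CPM on average. All 3 overlap opposite-strand genes. Alas1 was at 111 CPM in PNx replicate 6, below PNx replicate 1 (157 CPM), so neither aminolevulinate synthase gene was as far above the other libraries there as the globin genes were. Of the 82 genes in these lists that entered the fit, edgeR called 0 in each of the 6 contrasts. In PNx against Control 13 were higher and 3 lower at an unadjusted p under 0.05, beside 18.5% and 6.92% of all genes, and their median log2 fold change was 0.39 beside 0.36 over all genes.

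The 3 most abundant genes of the other lists are given here for PNx replicate 6 and for Control. In the membrane list, Aqp1 (aquaporin 1, a water channel also of endothelium) was at 209 CPM in PNx replicate 6 and 4.24 ± 2.76 (SD, n = 6) in Control. Epb41 (protein 4.1) was at 149.9 and 61.5 ± 15.9 CPM, and Tmod1 (tropomodulin, overlapped by Tstd2) was at 237 and 931 ± 151. Among the transcription factors, Ldb1 was at 91.7 and 22.0 ± 6.38 CPM and Bcl11a, a repressor of foetal globin genes, at 2.62 and 7.53 ± 6.35. In the maturation list Mkrn1, Xpo7 and Isg20 were at 40.4, 43.0 and 5.76 CPM, against 44.0, 31.0 and 37.8 on average in Control.

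The enzymes and clearance genes were mostly above Control there. Cyb5r3, a reductase of methaemoglobin, was at 339 CPM in PNx replicate 6 and 175 ± 32.2 in Control, and Prdx2 (peroxiredoxin 2) was at 47.7 CPM there with a median of 14.7 over 24 libraries. Hmox2, which degrades haem, was at 129.97 and 128 ± 18.9 CPM and so did not stand out. Among hypoxia genes Vegfa was at 133 and 41.5 ± 13.6 CPM, Ldha at 187 and 13.0 ± 8.06, and Ankrd37 at 4.19 and 5.37 ± 3.20. Like Tmod1, the genes Epb41, Ldb1, Bcl11a, Mkrn1, Cyb5r3, Prdx2, Hmox2 and Ankrd37 overlap opposite-strand genes.

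Without PNx replicate 6, 7 of 81 list genes were higher in PNx than in Control by edgeR at an adjusted p under 0.1: Alas1, Cpox, Add2, Dmtn, Cldn13, Hemgn and Ankrd37. This share was not above that of all genes called higher in this fit, 11.1%. The largest of these changes was 4.21 ± 1.08 (SE) for Cldn13, a claudin of erythroid cells, and Hemgn (haemogen) was at 3.82 ± 1.08. The edgeR adjusted p-values were 0.0749 and 0.075. Hemgn and Cldn13 were highest in PNx replicate 3, where Alas2 was at 1.49 CPM, and Alas1 and Cpox in PNx replicate 1, where it was at its lowest (1.01 CPM). The median of the 81 genes was -0.37, beside 0.02 over all genes.

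Markers of other cell types stood apart in PNx replicate 6 and NaKtide replicate 6. The adipocyte list (18 genes) summed to 12474 CPM in PNx replicate 6 and 6309 in NaKtide replicate 6 against a median of 562, and 16 of its 18 genes were highest in PNx replicate 6. The endothelial list (12 genes) summed to 1121 and 527 CPM against a median of 79.0, with 11 of 12 genes highest in PNx replicate 6. The epididymis list (15 genes) was low in both, at 168 and 20.7 CPM against a median of 1039. In the PNx group it ranged from 25.8 to 2050 CPM, so another PNx library was lower than PNx replicate 6. NaKtide replicate 6 also had 6237 CPM of skeletal muscle markers (median 71.2), and PNx replicate 6 had 48.2. Control replicate 1, the next in globin level, differed from both, with 2220 CPM of epididymis, 85.0 of endothelial and 1176 of adipocyte markers, and PNx+NaKtide replicate 1 had 2466 CPM of epididymis markers. The part of these cell types in the globin level was not tested.

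Markers of other blood cells varied by list and by gene. The platelet list stood at 60.8 CPM in PNx replicate 6 and 52.1 in NaKtide replicate 6, below its median of 235.5. Itga2b held 7022 of its 8334 counts. Within the PNx group the list ranged from 47.3 to 268.9 CPM with a median of 77.0, so another PNx library was lower than PNx replicate 6. Pf4 (platelet factor 4), named after its values were seen, was at 15.2 CPM in PNx replicate 6 and a median of 0. Of 5 platelet markers tested, 1 was highest in PNx replicate 6, beside 24.8% of all genes tested. Neutrophil markers were at 5.24 and 3.14 CPM (median 4.34), with S100a8, Retnlg and Cxcr2 at 0 in every library. T cell markers stood at 77.0 and 71.5 CPM (median 76.7), macrophage markers at 475 and 299 (median 391), and B cell markers at 123 and 188 (median 18.6). The B cell list had a median of 64.8 CPM within the PNx group, and 2 of its 8 tested markers were highest in PNx replicate 6. Pax5, which overlaps opposite-strand genes, held 701 of its 1645 counts, and Ighm held 544. Single genes dominated the T cell list (Cd247, 3081 of 3430 counts) and the macrophage list (Csf1r, 13863 of 15658 counts), and 8 of 10 macrophage markers were highest in PNx replicate 6. Cd247 and Csf1r share exon bases with opposite-strand genes (Pou2f1 and Hmgxb3), so their counts may not be their own RNA.

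**Figure D4:**
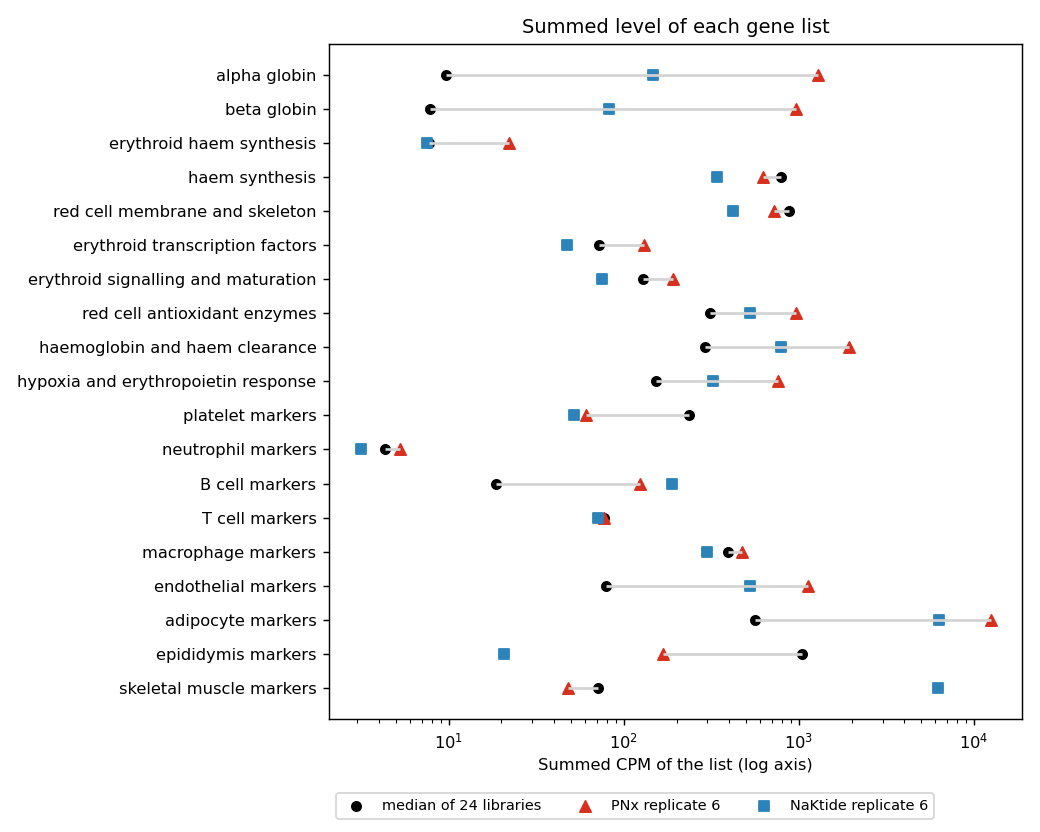
Summed level of each gene list in CPM (horizontal log axis), as the median of 24 libraries (black circles), in PNx replicate 6 (red triangles) and in NaKtide replicate 6 (blue squares). The globin, adipocyte and endothelial lists were far above their medians in both libraries, and the platelet and epididymis lists were below.

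By the rule for likeness, the named genes outside the lists with the highest Spearman rho to the mean standardised globin level over 24 libraries were Stx16 (0.934), Arhgef12 (0.890), Gsn (0.877), Ccdc80 (0.874), Ephb2 (0.868), Nrp1 (0.863), Acad11 (0.857), Pcdhgc3 (0.854), Sncg (0.851) and Atf6b (0.849), among 19735 genes compared. Stx16 had 167 CPM in PNx replicate 6 and a median of 12.2, and Gsn (gelsolin, an actin-severing protein) had 1595 and 61.5. Over the 24 libraries 2.90% of the genes compared had a rho of 0.7 or more, and the same 10 genes led when PNx replicate 6 was left out. These values are a description of 24 libraries that share depth and tissue make-up.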

How the data were processed

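RNA of adipose tissue from 24 mice was sequenced, 1 library per mouse, and groups and replicate numbers came from the sample labels. Per the labels the mRNA kit was stranded. The authors trimmed reads with Trimmomatic 0.38, aligned them to GRCm38 with HISAT2 2.1.0 and counted reads per gene with GenomicAlignments. Raw counts, FPKM and normalized values were deposited, and the tests used the counts. The strand setting and annotation release of the counting are not given in the sources used here. Within rounding, normalized values equalled raw counts over 1 factor per library, and the deposited FPKM equalled these times 1 constant per gene.

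Symbols came from GENCODE M21 (54165 of 54232 identifiers matched), and promoters from RefSeq. Genes with more than 10 counts in all were fitted with edgeR 4.0.16 in R 4.3.3 (TMM, robust quasi-likelihood, 4 group means), with Benjamini-Hochberg adjusted p under 0.1. SE is the absolute log2 fold change over the square root of F. Printed CPM are counts scaled to the same library total. Correlations used log2(CPM + 1). Members and lists were chosen with earlier results of these data known. The text names the members, the 3 most abundant detected genes of each list, list genes past the threshold, and the 10 genes most similar to globin (mean of at least 1 CPM, unnamed models passed over); other genes were chosen after their values were seen. Alternatives were DESeq2 1.42.0 and its size factors, library size scaling, other filters, limma 3.58.1 (voom with sample weights, and log2(FPKM + 1) or log2(FPKM + 0.1), which understates changes of low genes), compared groups only, a replicate block, adjusted p under 0.05, and leaving out each library. The edgeR fit was checked on simulated counts. All 60 pairs of libraries within groups differed beyond sampling noise (lowest chi-square per degree of freedom 1.57). No per-sample column was left without a sample.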

Additional observations from a re-analysis of the deposited data

Results flagged for a closer look

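A library was singled out where its gap to the nearest of its group exceeded Dixon's 95% critical value. Chance passes that value in about 1 in 20 groups where values are normally distributed, which CPM of such wide spread need not be. Of 29 groups 16 had such a library. Most were the same libraries repeated over globin genes that varied together, so this count is not read against that rate. Hba-a1 stood apart in Control replicate 1 (38.7 CPM), NaKtide replicate 6 (74.6 CPM), PNx replicate 6 (656 CPM) and PNx+NaKtide replicate 1 (17.3 CPM). Hba-a2 did so in the same 4 libraries, at 39.2, 72.8, 622 and 15.4 CPM. Hbb-bs stood apart in Control replicate 1 (26.2 CPM), NaKtide replicate 6 (45.2 CPM) and PNx replicate 6 (529 CPM), and Hbb-bt in the same 3 libraries (22.9, 37.0 and 431 CPM). The members were chosen for their height in PNx replicate 6, so its standing apart is no separate finding. The shares that also stood apart were of alpha globin and Alas2. Alpha made up 36.4% of globin counts in Control replicate 3, of 33 counts, and Alas2 made up 61.3% of the counts of the 5 genes in PNx replicate 4, of 31 counts.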

How the results depend on the processing

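Of 1009 alternative log2 fold changes of the members, 955 kept the direction and the side of the threshold, 14 passed it and 40 reversed. The 955 include DESeq2 values of the globin genes, which had no p and were counted as not past the threshold. In PNx against Control, where edgeR called 0 members, DESeq2 size factors called 2 (Hbb-bs and Hbb-bt, higher), library size scaling 1 and filterByExpr 1 (Hbb-bs), and voom 5, all lower, in fits that called 33.3%, 15.6%, 17.7% and 63.5% of all genes. Voom called 1 member in PNx+NaKtide against PNx, 2 in PNx+NaKtide against Control and 1 in the interaction, beside 42.4%, 1.24% and 25.2% of all genes. Leaving out 1 library gave 0 to 4 members in PNx against Control (4 without PNx replicate 4 and 2 without PNx replicate 5, beside 33.2% and 23.1% of all genes) and 0 in the other contrasts. Members called in contrasts with the PNx group were called in fits that hold PNx replicate 6, by which the genes were found. Nothing is read from those calls.

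In PNx against Control, reversed values for Hba-a1 and Hba-a2 were -2.1 and -2.01 with voom, -0.21 and -0.13 in limma at a pseudocount of 1 on FPKM, -0.44 and -0.32 at 0.1, and -0.091 and -0.045 with the replicate block. Hbb-bs was at -1.34 with voom, and Hbb-bt at -2.01 with voom and -0.13 on log2(FPKM + 0.1). Leaving out 1 library moved them from -1.66 to 3.18 (Hba-a1), -1.63 to 3.32 (Hba-a2), -0.94 to 3.52 (Hbb-bs) and -1.31 to 3.29 (Hbb-bt), each reversed only without PNx replicate 6. In PNx+NaKtide against PNx, voom gave 0.028 for Hbb-bs and 1.74 for Alas2, log2(FPKM + 0.1) gave 0.073 for Alas2, and leaving out 1 library gave Alas2 -0.54 to 0.12.

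In NaKtide against Control, Hba-a1, Hba-a2, Hbb-bs and Hbb-bt reversed to -0.45, -0.42, -0.24 and -0.815 with the replicate block and -0.46, -0.46, -0.22 and -0.71 with voom. Hba-a1, Hba-a2 and Hbb-bt were at -0.043, -0.00906 and -0.27 at a pseudocount of 1 on FPKM and -0.066, -0.03016 and -0.35 at 0.1. Leaving out 1 library gave -1.01 to 1.02, -1.03 to 1.18, -0.71 to 1.08 and -1.16 to 0.78, reversed only without NaKtide replicate 6. In the interaction, voom gave 0.25 for Hbb-bs and 0.68 for Hbb-bt. The cause of these reversals was not tested.

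Of 82 context list genes, those called in PNx against Control numbered 0 in edgeR, 21 with DESeq2 size factors, 20 in DESeq2 (33.3% and 29.7% of all genes) and 0 to 22 leaving out 1 library (22, 15 and 7 without PNx replicates 4, 5 and 6, beside 33.2%, 23.1% and 14.8% of all genes), and DESeq2 called 6 in PNx+NaKtide against PNx (5.80% of all genes). No composition comparison passed under any alternative. Of 10 member correlations, 9 passed by rho and 7 by r without PNx replicate 6. With that library 10 passed by each, and 8 and 7 on FPKM. The choice of genes bears on these last counts, and nothing is read from them. Replicate numbers were not treated as pairs in the main fit. Of 36 same-numbered pairs 19 had r over 0.1 (range -0.59 to 0.71). Differently numbered pairs were not compared, so these values cannot show whether the numbers pair the samples. The replicate block called 0 members. Most globin values rest on few counts, with a median of 36 for the 4 genes together.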
